A study of Homo sapiens with 16 samples.

Results

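Oxidative phosphorylation was followed through the messages for the subunits of the respiratory chain and the ATP synthase. The genes were chosen by symbol: nuclear genes of the NDUF, SDH, UQCR, CYC1, COX and ATP5 names, and mitochondrially encoded genes of the MT-ND, MT-CO, MT-ATP and MT-CYB names, each with at least 10 counts in at least 4 libraries. Of 78894 genes in the table, 148 had a fitting symbol and 94 met the count minimum. They comprise 77 nuclear genes, 13 mitochondrial genes and 4 ATP synthase pseudogenes (ATP5PDP4, ATP5MC1P4, ATP5MC1P6 and ATP5MC2P4), and all 94 were among the 16790 genes tested. By complex, the nuclear genes are 36 of complex I, 4 of complex II, 9 of complex III, 11 of complex IV (NDUFA4 included) and 17 of complex V. The mitochondrial ones are 7 of complex I, 1 of complex III, 3 of complex IV and 2 of complex V. The choice used no measured difference between the groups, but the count minimum leaves out fitting symbols with low counts.

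MCF10DCIS.com, the line used, is a human breast line that forms lesions resembling ductal carcinoma in situ. PCSK5 encodes a proprotein convertase that cleaves precursors of secreted proteins, including that of the TGF-beta family ligand GDF11. All groups derive from 1 PCSK5-/- clone that was made with Cas9 and recovered in GDF11, and each carries a tetracycline-regulated, V5-tagged PCSK5 allele as 1 polyclonal line: wildtype (WT), M452I or T288P. All wells held 3D cultures on matrigel, given doxycycline (1 µg/ml) starting at day 4 and taken for RNA at day 8. A further group of T288P wells received mature GDF11 (250 ng/ml) for the whole culture (T288P+GDF11), and each of the 4 groups has 4 wells. With 1 line per allele, p-values measure the spread between wells, and line and allele cannot be told apart. In bulk RNA, fewer cells of a kind and less RNA per cell cannot be told apart either.

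Complexes I and II pass electrons from NADH and succinate to ubiquinone, complex III passes them on to cytochrome c, and complex IV hands them to oxygen. Complexes I, III and IV pump protons across the inner mitochondrial membrane, and complex V, the ATP synthase, uses that gradient to make ATP. Complex II is built from nuclear genes alone, whereas the other complexes combine nuclear subunits with subunits whose mRNAs are cut from long transcripts of the mitochondrial DNA.

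Promoters are shown for 4 complex I and II genes called in a comparison below and for COX5B, the gene that deviated most in 1 well. The sequences are RefSeq reference sequence on GRCh38.p14, 120 bases ending at the base before the annotated start, 5′ to 3′ on the gene's strand. Capitals mark the letters of 4 motifs searched on both strands: the ETS core CCGGAA (bound by GABPA), the NRF1 half-site core TGCGCA, the GC box GGGCGG and the YY1 core AAGATGG. The ETS core and the GC box abut in COX5B.
SDHA, chr5:218200-218319, plus strand: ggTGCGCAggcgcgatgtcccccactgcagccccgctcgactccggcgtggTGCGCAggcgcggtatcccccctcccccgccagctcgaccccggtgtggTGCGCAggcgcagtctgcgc
NDUFV1, chr11:67606816-67606935, plus strand: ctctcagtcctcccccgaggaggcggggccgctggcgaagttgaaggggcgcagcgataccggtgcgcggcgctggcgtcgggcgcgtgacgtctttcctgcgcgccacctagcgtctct
NDUFV3, chr21:42893189-42893308, plus strand: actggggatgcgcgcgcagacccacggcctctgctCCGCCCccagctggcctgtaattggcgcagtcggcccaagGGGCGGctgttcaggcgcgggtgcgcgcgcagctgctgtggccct
NDUFA8, chr9:122159780-122159899, minus strand: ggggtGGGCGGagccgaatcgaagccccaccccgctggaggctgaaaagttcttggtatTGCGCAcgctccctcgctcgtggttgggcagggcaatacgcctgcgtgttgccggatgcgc
COX5B, chr2:97645942-97646061, plus strand: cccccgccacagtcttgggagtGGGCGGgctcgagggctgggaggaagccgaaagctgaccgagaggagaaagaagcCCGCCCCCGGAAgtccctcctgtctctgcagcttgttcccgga

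The SDHA stretch holds 3 NRF1 half-site cores in a repeated context, that of NDUFA8 holds 1 with a GC box, that of NDUFV3 holds 2 GC boxes, and that of NDUFV1 holds none of the 4 motifs. Windows of 300 bases (250 before to 50 after the start) were matched for 63 of the 77 nuclear genes. The ETS core was in 28 of 63 windows (44.4%), against 17.2% of all 35116 windows of the reference table. The NRF1 half-site core was in 19 (30.2%), against 8.24% of all. The GC box was in 39 (61.9%), against 45%, and the YY1 core in 16 (25.4%), against 5.84%. Windows of complex IV genes held the ETS core in 7 of 9 and those of complex I in 7 of 31. The annotated starts of 59 of the 63 lay within 300 bases of a GENCODE 29 start, NDUFA5 being 1 of the 4 that did not, so its window is not described. A match of letters is a description and not evidence of binding.

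Library totals were 28.45 to 50.76 M counts (mean 36.5 ± 6.66, SD, n = 16). PCSK5 was at 25.34 to 66.78 CPM (counts scaled to a common library total with edgeR's TMM factors) with all groups overlapping, and counts per gene do not separate the allele from the disrupted endogenous transcript. Epithelial and basal markers (8 genes) summed to 5950 to 8646 CPM in the 12 untreated wells and 3994 to 5214 in T288P+GDF11. Summed markers of fibroblasts (6 genes), endothelium (4), leukocytes (5) and erythroid cells (3) reached at most 8.37, 3.47, 1 and 2.79 CPM in any well, with LUM, COL3A1 and HBB at 0 throughout. In T288P+GDF11 the first 2 of these reached their highest sums (5.75 to 8.37 and 2.08 to 3.47 CPM), and the part of these marker differences in the results was not tested.

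Of the 16 libraries, 2 stood apart from their groups in these genes. M452I replicate 4 lay below the other M452I wells for 75 of 77 nuclear genes, by a median of 0.67 log2 units, and above them for 11 of 13 mitochondrial genes, by a median of 0.21. T288P replicate 1 was the reverse, with 74 of 77 nuclear genes above the other T288P wells (median 0.35) and 12 of 13 mitochondrial genes below them (median -0.18). Over all genes tested the same medians were 0.052 and -0.005. Most nuclear genes lying on 1 side is not particular to these wells: 75 of 77 were below in T288P replicate 3 (median -0.20), 73 of 77 below in T288P+GDF11 replicate 4 (-0.15), and 74 of 77 above in WT replicate 4 (0.23) and in T288P+GDF11 replicate 2 (0.23). In M452I replicate 3 it was 77 of 77 above (0.27). The 2 wells differ from these in the size of the nuclear shift. This does not hold for the mitochondrial genes. There T288P replicate 4 (13 of 13 above, median 0.21) shifted more than T288P replicate 1, and T288P+GDF11 replicate 1 (12 of 13 above, 0.17) nearly as much. The gaps were widest in complex IV: COX5B was 1.08 and COX8A 1.06 log2 units lower in M452I replicate 4, and COX8A was 0.81 higher in T288P replicate 1. Genes against the direction in M452I replicate 4 were NDUFV3 and NDUFA5, both of complex I, and in T288P replicate 1 NDUFV3, NDUFA8 and NDUFS1. Cytosolic ribosomal protein genes moved with them, at 9.29% of counts in M452I replicate 4 (12.69 to 13.02% in the other 3 wells) and 12.25% in T288P replicate 1 (10.67 to 11.05%). The part of this shift in the results was not tested beyond the fits with and without these wells given below.

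**Figure D1:**
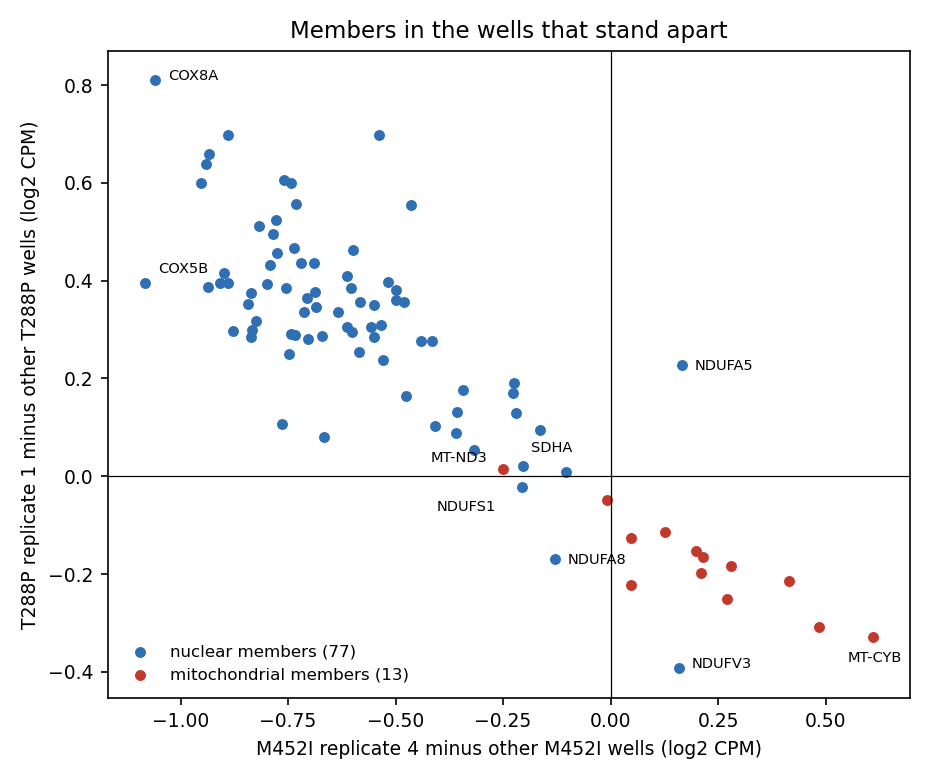
Each point is a gene. The x axis gives log2 CPM in M452I replicate 4 minus the mean of the other 3 M452I wells, and the y axis the same for T288P replicate 1. Nuclear genes (blue) fill the upper left, led by COX8A at -1.06 and 0.81, and the mitochondrial genes (red) lie mostly at the lower right, with MT-CYB at 0.61 and -0.33.

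Levels can be compared between genes only per length. The length used is that of all annotated exons of a gene merged, which can exceed that of its mRNA. The order of genes and complexes therefore depends in part on the annotation. As CPM per kb of exon over the 16 wells, the nuclear genes had a median of 24.3 and ran from 3.02 for NDUFA5 to 353 for ATP5F1B, the catalytic beta subunit of the ATP synthase. The medians by complex were 14.6 for complex I, 22.7 for complex II, 38.1 for complex III, 72.9 for complex IV and 23.1 for complex V. The mitochondrial mRNAs had a median of 3287 CPM per kb, from 414 for MT-ND6 to 7332 for MT-ATP8, which shares 22.2% of its bases with MT-ATP6 so that reads there cannot be assigned. The libraries were poly(A)-selected, so these levels depend on the poly(A) tail of a transcript as well as on its amount. Strandedness is not given, so reads at MT-ND6, on the opposite strand of the mitochondrial DNA, may stem from either strand. Across the 16 wells the coefficient of variation of CPM was lowest among nuclear genes for NDUFS1 (6.3%) and highest for COX8A (27.0%).

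As a share of all counts, the 77 nuclear genes together took 0.719% ± 0.046 in WT wells (SD, n = 4). M452I wells had 0.776% ± 0.074, T288P wells 0.750% ± 0.045 and T288P+GDF11 wells 0.736% ± 0.048. The 13 mitochondrial genes took 3.31% ± 0.14, 3.07% ± 0.61, 3.43% ± 0.47 and 3.42% ± 0.23 of counts in the same order of groups. The 4 groups overlapped in both shares, and the largest SD, that of the mitochondrial share in M452I, goes with the 3.98% of replicate 4. No exact 95% binomial interval of a share was wider than ± 0.0116 percentage points, so counting error is small beside the spread of wells.

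**Figure D2:**
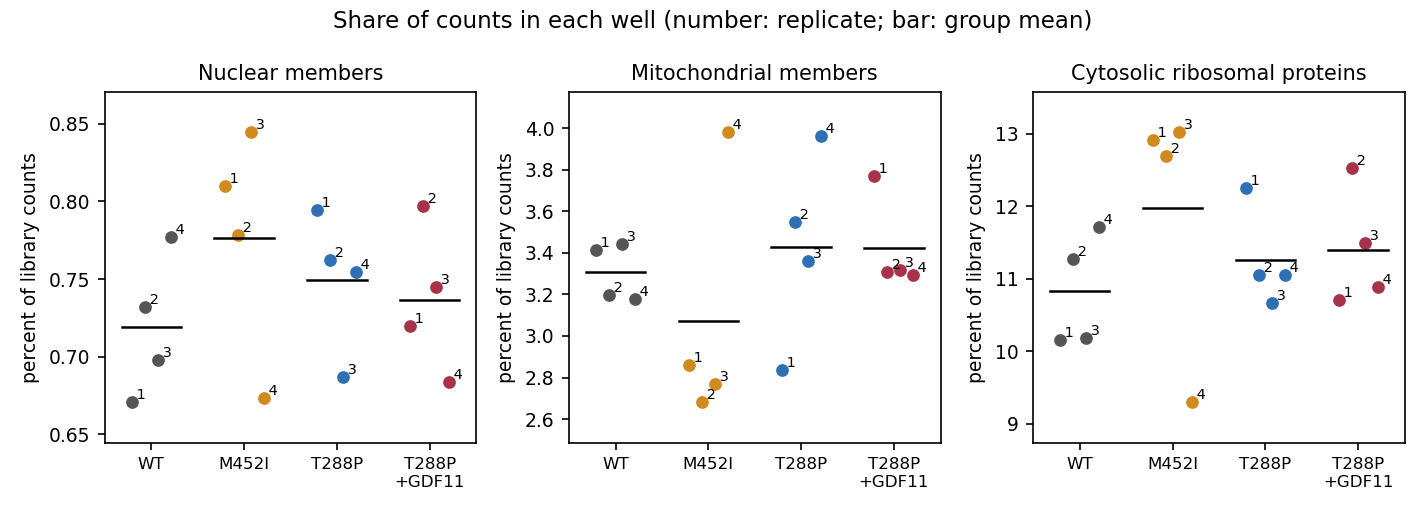
Percent of library counts in each well for the 77 nuclear genes, the 13 mitochondrial genes and the cytosolic ribosomal protein genes, by group, with the replicate number at each point and the group mean as a bar; axes do not start at 0. M452I replicate 4 is the lowest M452I well in the first and last panels and the highest in the middle one at 3.98%.

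The M452I allele was compared with WT. None of the 77 nuclear genes was called by edgeR's quasi-likelihood test at an adjusted p under 0.05, and 0.0238% of all genes were. Their log2 fold changes were nevertheless mostly of 1 sign, positive for 76 of 77 (55.4% of all genes), with a median of 0.186 against 0.031 over all genes. The medians by complex ran from 0.132 (complex II) to 0.198 (complex III). At an unadjusted p under 0.05 there were 2 of 77, against 6.30% of all genes, and DESeq2 and limma-voom also called 0. The wells overlapped for all 77, as they did for all but 4.09% of genes.

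Single genes show the 1 low M452I well. COX4I1, a nuclear subunit of complex IV, was at 281.5, 311.3, 273.7 and 335 CPM in the WT wells and at 374.3, 375.2, 380.3 and 224.6 CPM in the M452I wells. In M452I, 3 wells lay above every WT well and replicate 4 lay below all of them. The log2 fold change was 0.17 ± 0.14 (SE), with an edgeR adjusted p of 0.84. COX5B went from 62.0 ± 8.3 to 71.8 ± 22.5 CPM (SD, n = 4), and the lowest M452I well was at 38.8. UQCRC1, a core protein of complex III, was at 187.4, 190.1 and 191.2 CPM in 3 M452I wells and at 135.7 in replicate 4, against 158.5 to 179.3 in WT. ATP5MK, a small subunit of the ATP synthase, was at 177.9 to 191.1 in those 3 wells and 99.2 in replicate 4, against 125.6 to 149.3 in WT. All of these repeat the same picture, 3 high wells and 1 low one. UQCRFS1, the Rieske iron-sulfur protein, and SDHB, the iron-sulfur subunit of complex II, did so as well, at 63.2 and 72.3 CPM in replicate 4 and 92.4 to 98.9 and 94.6 to 101.7 in the others. SDHA, the flavoprotein of complex II, varied less, at 109.4 ± 8.1 CPM against 103.4 ± 2.5 in WT.

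When both wells that stand apart were left out, a choice made after seeing the data that removes a low M452I well, 29 of the 77 nuclear genes were called higher in M452I than in WT and none lower, against 2.92% of all genes higher and 0.802% lower. The median rose to 0.316. By complex the calls were 10 of 11 for complex IV, 6 of 9 for complex III, 7 of 36 for complex I, 6 of 17 for complex V and 0 of 4 for complex II. Examples are ATP5MK (0.46, adjusted p = 0.0178), ATP5F1E (0.45, adjusted p = 0.0205) and COX4I1 (0.33, adjusted p = 0.0287). Without either well alone, 0 nuclear genes were called. With the ribosomal protein share of each well in the model the median was -0.064, so the sign of the shift depends on whether that share is fitted.

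The mitochondrial mRNAs leaned the other way between M452I and WT, with 10 of 13 log2 fold changes negative, a median of -0.086 and 0 called. The 7 complex I mRNAs had a median of -0.175 and the other 6 a median of -0.031. MT-ND1 (1248 to 1387 CPM in M452I, 1405 to 1555 in WT) and MT-ND4L (1113 to 1253, against 1296 to 1407) were lower in every M452I well than in any WT well, and 2.31% of all genes were lower without overlap. Their log2 fold changes were -0.15 ± 0.08 and -0.22 ± 0.11, and their edgeR adjusted p-values 0.83 and 0.79. Without both wells that stand apart, MT-ND6 (-0.36, edgeR adjusted p = 0.0178) and MT-ND5 (-0.32, edgeR adjusted p = 0.0296) were called lower. That fit leaves out the M452I well that lay above the others for 11 of 13 mitochondrial genes. The lower values follow in part from this choice.

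For T288P against WT, edgeR called 0 of 77 nuclear and 0 of 13 mitochondrial genes, and 0.0417% of all genes. The medians were 0.023 and 0.017, against 0.017 over all genes, and no member had an unadjusted p under 0.05, whereas 8.49% of all genes did. DESeq2 and limma-voom called 0 as well, and 0 were called without both wells that stand apart (4.06% of all genes). NDUFS1, the large iron-sulfur subunit of complex I, was at 109.3 ± 5.1 CPM in WT and 114.6 ± 6.1 in T288P. ATP5F1A, the alpha subunit of the ATP synthase, was at 402.5 ± 24.8 and 400.4 ± 23.5. Its difference of -0.01 ± 0.10 lies within the spread of wells, as did those of the 3 genes for the proton-carrying c subunit, ATP5MC1 (0.20 ± 0.12), ATP5MC2 (0.04 ± 0.17) and ATP5MC3 (0.07 ± 0.12).

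M452I was also compared with T288P, sharing its wells with the comparisons above. Again 0 of 77 and 0 of 13 were called, against 0.00596% of all genes, with 0 at an unadjusted p under 0.05 (2.18% of all genes) and 0 by DESeq2 or limma-voom. The nuclear median was 0.155 and the mitochondrial one -0.086. Leaving out M452I replicate 4 and T288P replicate 1, which deviate in opposite directions, turned this into 55 nuclear genes called higher and 0 lower in M452I (8.88% and 5.18% of all genes), with a median of 0.390. All 9 nuclear genes of complex III and all 11 of complex IV were among them, up to 0.66 for COX8A (adjusted p = 0.0016). Of the mitochondrial genes 5 were called lower, MT-ND6, MT-CYB, MT-CO1, MT-ND5 and MT-ND1, by 0.22 to 0.35. The pair of wells therefore decides whether these genes are called between the lines. Both wells were singled out by these same genes, so higher nuclear and lower mitochondrial values in M452I are built into leaving them out. The calls of that fit are thus not a test of a difference between the lines.

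**Figure D3:**
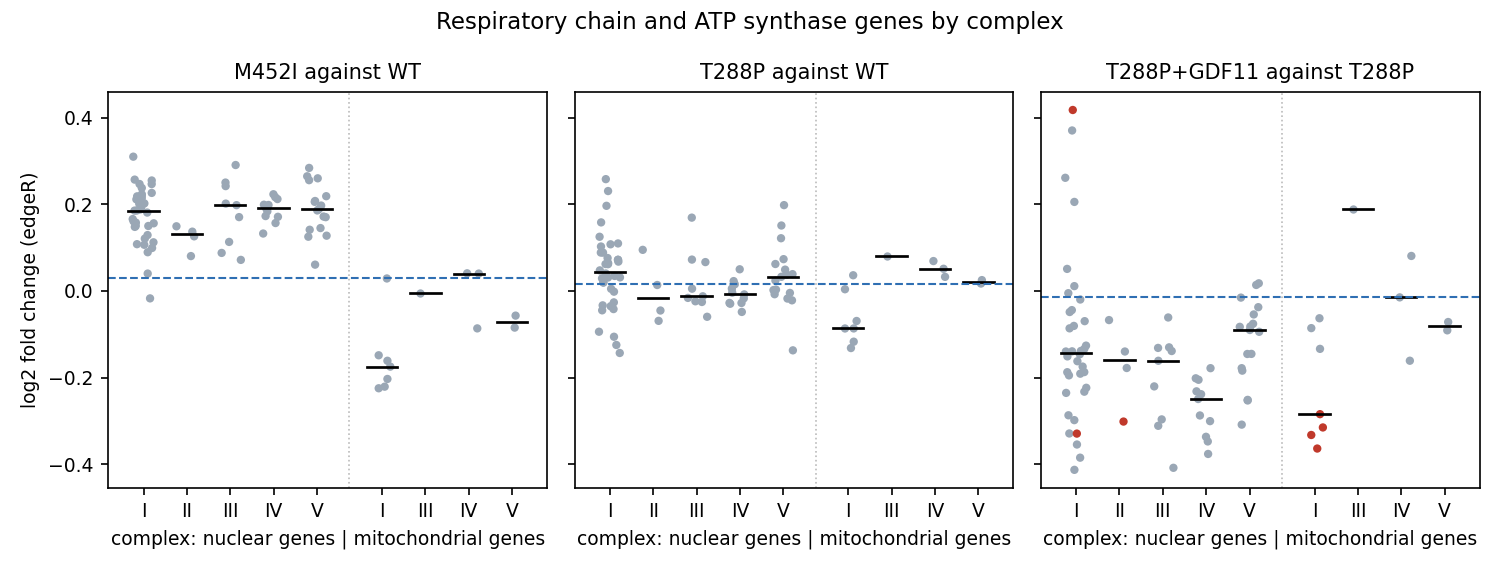
Log2 fold change of every nuclear and mitochondrial gene by complex in the 3 main comparisons. Points are genes (red: called at an adjusted p under 0.05), short black bars are medians and the dashed line is the median of all genes tested. In M452I against WT nearly all nuclear genes lie above 0 with none called, and in T288P+GDF11 against T288P the 4 called mitochondrial genes all belong to complex I.

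GDF11 treatment of the T288P line was compared with untreated T288P. The nuclear genes leaned lower, with 8 of 77 log2 fold changes positive (48.5% of all genes) and a median of -0.161 against -0.015 over all genes, but few passed the test. SDHA and NDUFV1 were lower and NDUFA5 higher, 3 of 77 genes called, and 12.9% of all genes were called (5.07% higher and 7.88% lower). At an unadjusted p under 0.05 there were 10 of 77, against 28.3% of all genes. The wells did not overlap for 3 higher genes (NDUFA5, NDUFA8 and NDUFV3) and 6 lower ones (NDUFV1, SDHA, CYC1, UQCRC2, COX7B and ATP5MK), against 10.2% and 11.8% of all genes. Among the mitochondrial mRNAs, 4 of 13 were called, all lower and all for complex I: MT-ND1, MT-ND2, MT-ND4L and MT-ND4. The nuclear share called was thus below the background and the mitochondrial share above it.

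SDHA (chr5:218241-256700, plus strand) was at 105.5, 101.9, 104.2 and 106.1 CPM in the T288P wells and at 83.95, 88.62, 79.75 and 86.55 in the T288P+GDF11 wells. The groups did not overlap, and the WT (100.8 to 105.9) and M452I wells (98.1 to 116.7) were above the treated ones too. The log2 fold change was -0.30 ± 0.07, with an edgeR adjusted p of 0.00856. The call held without each well of the pair in turn, but was lost with library totals as the only scaling (-0.16) and with no low-count filter. Pseudogenes close to SDHA can take or lend reads, of which SDHAP1 had 9416 counts over the 16 wells and at most 902 in a well. Its counts by group are not given here, and its part in the SDHA call was not tested. In complex II the other subunits were SDHB (-0.18 ± 0.11), SDHC (-0.07 ± 0.09) and SDHD (-0.14 ± 0.15), none of them called.

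NDUFV1 (chr11:67605653-67612554, plus strand), the subunit that takes electrons from NADH, was at 71.91, 68.1, 65 and 64.03 CPM in T288P and at 50.67, 60.7, 55.54 and 47.13 in T288P+GDF11. Every treated well was below every untreated T288P well, while the WT wells reached down to 57.9. The log2 fold change was -0.33 ± 0.09 (edgeR adjusted p = 0.0275). Leaving out single wells kept the call in 3 of 8 cases (highest adjusted p 0.116); it was lost without T288P replicate 1 or 2 or T288P+GDF11 replicate 1, 3 or 4. It was also lost with upper quartile scaling, with library totals only (-0.19) and with no low-count filter.

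NDUFA5 (chr7:123536997-123558255, minus strand), an accessory subunit of the arm of complex I that faces the matrix, was at 31.63, 32.45, 23 and 26.18 CPM in T288P and at 36.22, 38.14, 40.18 and 36.88 in T288P+GDF11. All treated wells were above all 12 untreated ones, the highest of which was the T288P well at 32.45. The log2 fold change was 0.42 ± 0.10 (edgeR adjusted p = 0.0129), and the call held without each well of the pair in turn. NDUFV3, another accessory subunit, was at 15.77, 24.39, 16.11 and 23.06 CPM in T288P, a split into 2 low and 2 high wells, and at 24.73 to 26.24 in T288P+GDF11. Its treated wells were also all above the 12 untreated ones, and its difference of 0.37 ± 0.13 did not pass (adjusted p = 0.0635).

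The other core subunits gave these values. NDUFS1 differed by -0.07 ± 0.08, UQCRC1 by -0.22 ± 0.12 and UQCRFS1 by -0.14 ± 0.12, none called. CYC1, the heme-carrying cytochrome c1 of complex III, was at 50.1 to 65.3 CPM with GDF11 and at 66.9 to 104.2 without, where the highest value is that of T288P replicate 1 (-0.41 ± 0.16, adjusted p = 0.106). All 11 nuclear genes of complex IV had negative log2 fold changes, from -0.178 for NDUFA4 to -0.376 for COX8A with a median of -0.250, and 0 were called by edgeR (2 at an unadjusted p under 0.05). COX4I1 differed by -0.25 ± 0.14 and COX5B by -0.30 ± 0.19. In complex V, whose median was -0.090, ATP5F1B differed by -0.25 ± 0.10 and ATP5F1A by -0.02 ± 0.10. The 3 c-subunit genes were between -0.09 and -0.08, and the extremes were ATP5MK (-0.31 ± 0.15) and ATP5PO (0.02 ± 0.12). The extremes of complex III were CYC1 and UQCR10 (-0.06 ± 0.15), and that of complex I on the low side NDUFS7 (-0.41 ± 0.21). Complex IV thus had the lowest of the nuclear medians and no gene past the threshold.

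**Figure D4:**
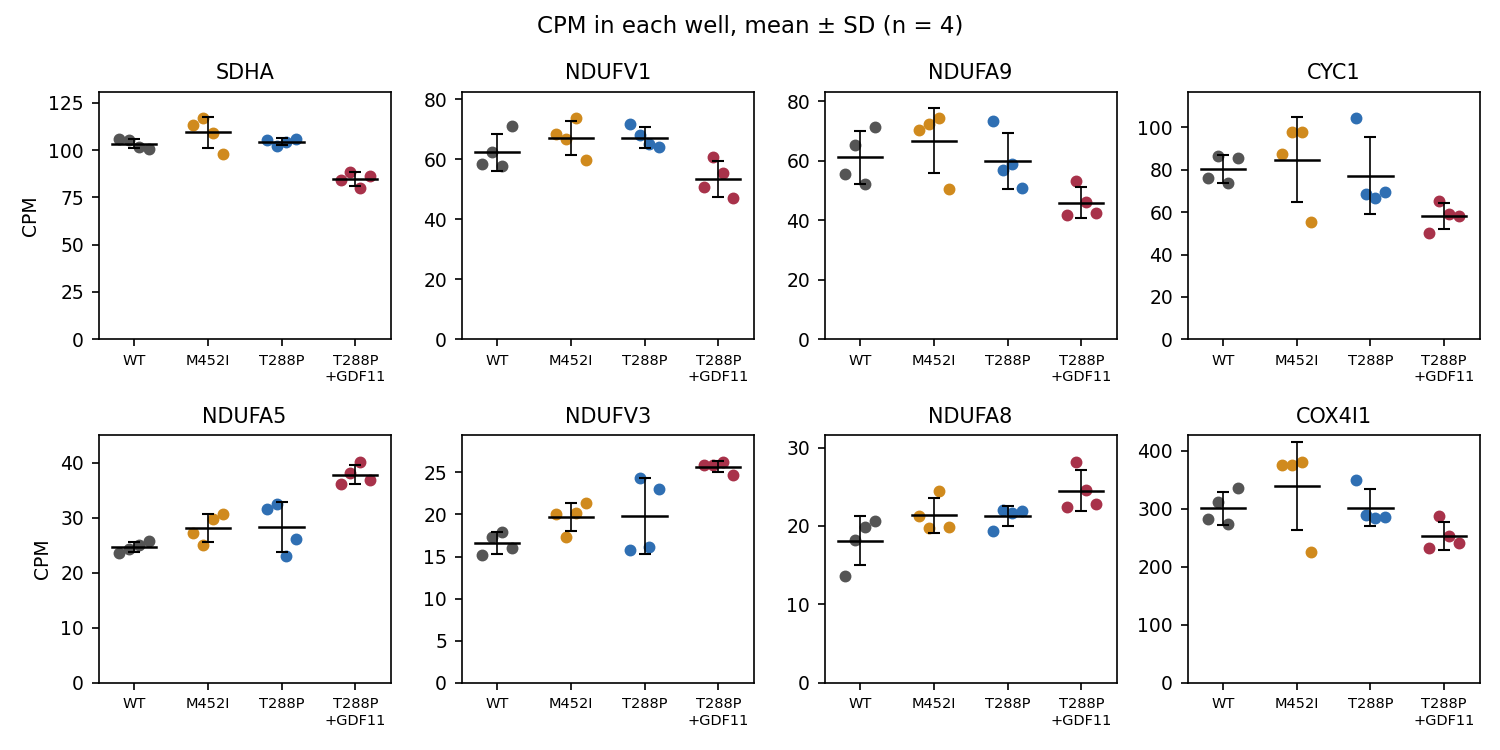
CPM in each well (points) with the group mean and SD (bars, n = 4) for the 7 nuclear genes called in a comparison with T288P+GDF11, and for COX4I1, which was called in none; axes start at 0. SDHA and NDUFV1 are lower, and NDUFA5 higher, in every treated well than in every untreated T288P well.

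The size of the nuclear median depends on how libraries are scaled and on which wells are in the fit. With library totals alone, all genes had a median of 0.124 in this comparison, the nuclear genes -0.015 and the mitochondrial genes 0.045, so relative to all genes both remain lower, by 0.14 and 0.08, and 0 mitochondrial genes were called (9.65% of all genes). Without both wells that stand apart, the nuclear median was -0.063 with 25 of 77 positive, 2 called higher (NDUFA5 and NDUFA11) and 2 lower (SDHA and NDUFV1), where 13.7% of all genes were called. With the ribosomal protein share in the model, 38 were called lower and 2 higher, where 29.3% of all genes were called.

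MT-ND1 (chrM:3307-4262, plus strand) was at 1321, 1523, 1466 and 1639 CPM in T288P and at 1234, 1160, 1179 and 1150 in T288P+GDF11. MT-ND2 was at 2693, 2989, 2659 and 3202 in T288P and at 2549, 2359, 2305 and 2264 in T288P+GDF11. Both were lower in every treated well than in any untreated T288P well, with log2 fold changes of -0.33 ± 0.08 (adjusted p = 0.0151) and -0.28 ± 0.09 (adjusted p = 0.0444). MT-ND4L was at 1174, 1275, 1165 and 1383 CPM without GDF11 and at 1107, 745, 1008 and 1023 with it. MT-ND4, which follows it on the same transcript, was at 4746, 5345, 4807 and 5879 without and at 4610, 3934, 4051 and 4103 with GDF11. Again no treated well reached the untreated T288P wells, and the log2 fold changes were -0.36 ± 0.11 (adjusted p = 0.0328) and -0.32 ± 0.10 (adjusted p = 0.0423). These 2 genes overlap by a few bases, 2.36% of MT-ND4L.

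The 4 calls are close to the threshold. Leaving out each of the 8 wells in turn kept MT-ND1 in 7 of 8 cases (lost without T288P replicate 4, adjusted p = 0.0658), MT-ND4L in 3 (lost without T288P replicate 1, 2 or 4 or T288P+GDF11 replicate 2 or 3), MT-ND2 only without T288P replicate 3 and MT-ND4 only without T288P+GDF11 replicate 1. The highest adjusted p-values were 0.106 for MT-ND4L, 0.163 for MT-ND2 and 0.158 for MT-ND4. The direction was negative in every such case. All 4 were lost with library totals only (-0.15 to -0.23) and with no low-count filter, and of 13 other settings MT-ND1 was kept in 11, MT-ND4L in 9, MT-ND4 in 6 and MT-ND2 in 5. Without both wells that stand apart the same 4 were called, at edgeR adjusted p-values of 0.000349 for MT-ND1 to 0.0102 for MT-ND4L. MT-CO1 was called in addition (-0.22, edgeR adjusted p = 0.0259). That choice was made after seeing the data. T288P replicate 1 lay below the other T288P wells for 12 of 13 mitochondrial genes, so leaving it out raises the untreated mean. The smaller p-values follow in part from this and do not make the calls firmer.

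The remaining mitochondrial genes were not called. Of complex I, MT-ND3 (-0.06 ± 0.08), MT-ND5 (-0.13 ± 0.11) and MT-ND6 (-0.09 ± 0.11), the gene on the opposite strand of the mitochondrial DNA, overlapped between the groups. MT-CO1 was at 8027 ± 854 CPM without and 7179 ± 463 with GDF11 (-0.16 ± 0.10), MT-CO2 at 4227 ± 257 and 4184 ± 294, and MT-CO3 at 2551 ± 135 and 2698 ± 131. MT-ATP6 (-0.07 ± 0.10) and MT-ATP8 (-0.09 ± 0.10) were near 0. MT-CYB, the mitochondrial subunit of complex III, was at 1127, 1426, 1332 and 1492 CPM without and 1709, 1429, 1533 and 1463 with GDF11 (0.19 ± 0.13, adjusted p = 0.371). The medians were -0.284 for complex I and -0.043 for the other 6 genes.

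**Figure D5:**
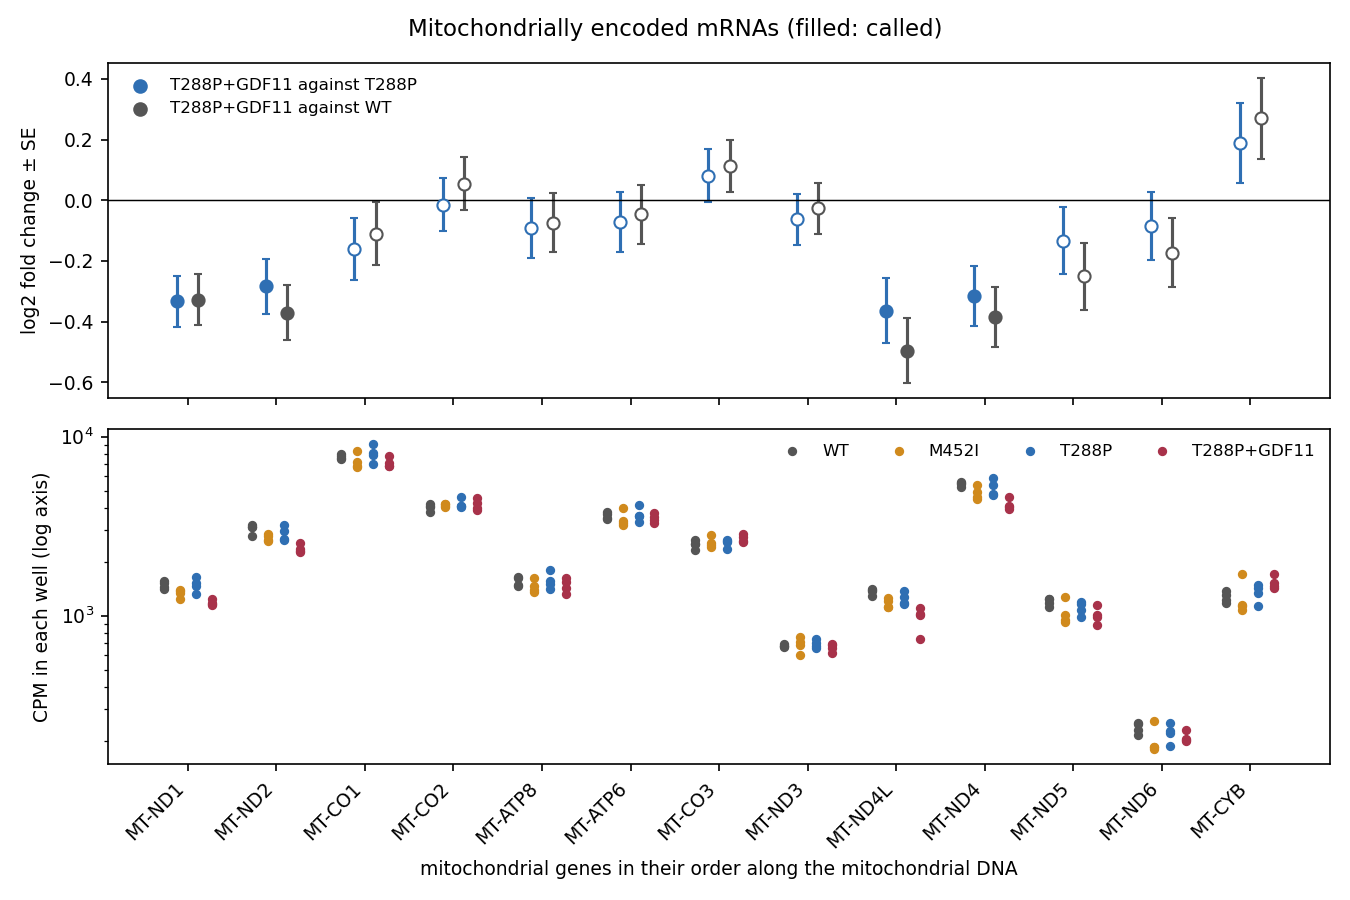
Upper panel: log2 fold change ± SE of T288P+GDF11 against T288P (blue) and against WT (grey) for the 13 mitochondrial genes in genomic order, filled where called. Lower panel: CPM in each well on a log axis by group. MT-ND1, MT-ND2, MT-ND4L and MT-ND4 are filled in both comparisons, and MT-CYB has the highest log2 fold change, 0.19 and 0.27.

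The balance among the 13 mitochondrial mRNAs does not depend on the scaling of libraries. The 7 complex I mRNAs took 37.88, 38.41, 36.21 and 37.47% of their summed counts in the T288P wells and 34.47, 32.5, 34.56 and 34.26% in the T288P+GDF11 wells. They took 37.61 to 41.17% in WT and 36.36 to 38.2% in M452I, so all 4 treated wells were below all 12 untreated wells, those that stand apart included. MT-ND4 took 15.2% ± 0.5 of the sum in untreated T288P and 13.4% ± 0.4 with GDF11 (SD, n = 4), MT-ND2 8.43% ± 0.32 and 7.61% ± 0.07, and MT-ND4L 3.65% ± 0.11 and 3.11% ± 0.46. In each of these 3 the treated wells were below all 12 untreated wells. MT-ND1 took 4.239 to 4.422% in untreated T288P and 3.685 to 3.904% with GDF11, and M452I wells reached down to 3.846%. The shares of MT-ND5 (3.22% in both groups), MT-ND3 (2.04 and 2.14%) and MT-ND6 (0.648 and 0.672%) did not fall. The lower sum is thus that of MT-ND1, MT-ND2, MT-ND4L and MT-ND4 and not of every complex I mRNA. MT-CYB took 4.65 to 5.10% with GDF11 and 3.62 to 4.14% without, and MT-CO3 8.23 to 9.29% and 6.98 to 7.80%, where without means untreated T288P. Untreated M452I wells reached 4.80% for MT-CYB and 8.23% for MT-CO3, so both overlapped the 12 untreated wells. As shares of 1 sum these values are tied to each other, and no test was run on them. MT-RNR1 and MT-RNR2, the mitochondrial ribosomal RNAs, together took 1.03 to 1.05% of all counts with GDF11 and 1.07 to 1.27% in untreated T288P. Neither was called between these 2 groups. Untreated M452I replicate 4 was lower still, at 0.998%. In T288P+GDF11 against WT, 1 of the 2 was called lower, where 28.9% of all genes were called.

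T288P+GDF11 was compared with WT as well, where allele and treatment differ together and the treated wells are the same as above. Here 3 nuclear genes were called higher and 3 lower, and 28.9% of all genes were called (13.8% higher, 15.1% lower), with a median of -0.156 against 0.017. Higher were NDUFV3 (0.63 ± 0.13, adjusted p = 0.0015), NDUFA5 (0.61 ± 0.10, adjusted p = 0.000327) and NDUFA8 (0.44 ± 0.12, adjusted p = 0.0116), all of complex I. NDUFA8 was at 13.68, 18.27, 19.84 and 20.64 CPM in WT and at 22.36, 28.16, 24.61 and 22.84 in T288P+GDF11, without overlap. Lower were CYC1 (-0.47 ± 0.16, adjusted p = 0.0383), NDUFA9 (-0.41 ± 0.14, adjusted p = 0.0301) and SDHA (-0.29 ± 0.07, adjusted p = 0.00474). NDUFA9, which joins the matrix and membrane arms of complex I, was at 55.71, 65.42, 52.16 and 71.38 CPM in WT and 41.75, 53.35, 46.11 and 42.64 in T288P+GDF11, where 1 treated well was above the lowest WT well. Calls for NDUFV3, NDUFA5, NDUFA8 and SDHA held without each of the 8 wells in turn, while NDUFA9 held in 3 of 8 cases and CYC1 only without T288P+GDF11 replicate 2 (adjusted p up to 0.132 and 0.116). NDUFA9 was lost without T288P+GDF11 replicate 1, 3 or 4 or WT replicate 2 or 4. SDHA was lost with library totals only (-0.11) and with no low-count filter, as were NDUFA9 (-0.23) and CYC1 (-0.28), which were lost with upper quartile scaling too, whereas NDUFV3, NDUFA5 and NDUFA8 were kept in all 13 other settings. NDUFV1, called against T288P, was at -0.22 ± 0.09 here (adjusted p = 0.0849).

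The mitochondrial calls against WT were the same 4 genes, MT-ND1 (-0.33 ± 0.08), MT-ND2 (-0.37 ± 0.09), MT-ND4L (-0.50 ± 0.11) and MT-ND4 (-0.38 ± 0.10), with edgeR adjusted p-values of 0.00231 to 0.00721. They held without each well in turn and were lost with library totals alone, where 0 were called and all genes had a median of 0.200. MT-CYB was at 1180 to 1376 CPM in WT and 1429 to 1709 in T288P+GDF11 (0.27 ± 0.13, adjusted p = 0.137). Without M452I replicate 4 and T288P replicate 1, neither of which is in this contrast but which enter the shared estimate of spread, 26 nuclear genes were called lower and 3 higher, where 18.7% and 17.6% of all genes were. The 26 included 10 of the 11 nuclear genes of complex IV, among them COX8A (-0.42, adjusted p = 0.00153). With only the WT and T288P+GDF11 wells in the fit 19 nuclear genes were called (37.7% of all genes), and with the ribosomal protein share in the model 53 (44.8%).

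The 4 pseudogenes had means of 0.245 to 1.03 CPM over the wells and none was called in any comparison. Their reads may come from the parent genes.

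Genes of related function were read from lists chosen by role. Of 12 regulators of mitochondrial gene programs, GDF11 treatment of T288P went with 1 called higher (TFAM) and 3 lower (NRF1, YY1 and GABPA), against 12.9% of all genes. NRF1, a transcription factor of many respiratory chain genes, was at 14.75, 10.33, 12.42 and 12.91 CPM without and 7.30, 7.40, 8.48 and 8.74 with GDF11 (-0.66 ± 0.16, adjusted p = 0.0111). All treated wells were below all untreated ones of every group. GABPA, the DNA-binding part of an ETS factor, was at 30.67 to 42.18 CPM without and 27.83 to 30.62 with GDF11 (-0.36 ± 0.11, adjusted p = 0.0444), and YY1 at 122 to 154.2 and 103 to 116.9 (-0.36 ± 0.09, adjusted p = 0.0152). TFAM, which packages mitochondrial DNA and starts its transcription, was at 46.7 ± 6.1 and 57.1 ± 4.9 CPM with overlapping wells (0.29 ± 0.09, adjusted p = 0.0466). Leaving out single wells kept NRF1 in 7 of 8 cases (lost without T288P replicate 1, adjusted p = 0.052) and YY1 in 6 (lost without T288P replicate 1 or T288P+GDF11 replicate 3, up to 0.0709). TFAM was kept in 3 cases (lost without T288P replicate 1 or 3 or T288P+GDF11 replicate 1, 3 or 4, up to 0.139) and GABPA only without T288P replicate 4 (up to 0.177). Of 13 other settings NRF1 was kept in all, and YY1 was lost with library totals only (-0.22). TFAM was lost with no low-count filter, only the 2 groups, the replicate block and without both wells that stand apart. GABPA was lost in 6 of the 13: limma-voom, RLE, upper quartile, library totals only (-0.21), no low-count filter and the filter of at least 10 counts in 4 libraries. Against WT, where allele and treatment differ together, 3 of the 12 were called higher and 5 lower (66.7%, against 28.9% of all genes). Among them were TFAM (0.47), NRF1 (-0.75), YY1 (-0.57) and GABPA (-0.59), with edgeR adjusted p-values of 0.000216 to 0.00189. The calls for TFAM, NRF1, YY1 and GABPA held there without each of the 8 wells in turn and in all 13 other settings.

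The coactivator PPARGC1A was low in every well, at 0.045 to 0.0975 CPM in WT, 0.11 to 0.302 in M452I, 0.0657 to 0.689 in T288P and 0.971 to 1.56 in T288P+GDF11. The WT levels are a few counts per library, so no fold change is given. It was called higher in T288P+GDF11 than in WT (adjusted p = 0.000168) and was not called against T288P (adjusted p = 0.051). PPARGC1B (0.18 ± 0.20) and the nuclear receptor ESRRA (-0.17 ± 0.13) were not called against T288P. Of the genes that maintain and process mitochondrial DNA and RNA, 2 of 19 tested were called higher and 2 lower (21.1%, against 12.9% of all genes). The lower ones were the mitochondrial DNA polymerase POLG (-0.39 ± 0.08, adjusted p = 0.00497) and FASTKD5 (-0.45 ± 0.10, adjusted p = 0.00609), which acts in mitochondrial RNA processing. TRMT10C, a subunit of mitochondrial RNase P, rose (0.36 ± 0.10, adjusted p = 0.0268), as did FASTKD1 (0.59 ± 0.17, adjusted p = 0.0305). How the FASTKD1 call fares without single wells or in other settings is not given here. In T288P+GDF11 against WT, 9 of the 19 were called higher and 3 lower (63.2%, against 28.9% of all genes).

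Assembly factors help to insert subunits and cofactors and are not part of the finished complexes. Of 23 complex IV factors, COA4 (0.36 ± 0.10, adjusted p = 0.0208) and COX18 (0.47 ± 0.13, adjusted p = 0.0284) were called higher, COX10, which makes heme for complex IV, was called lower (-0.40 ± 0.10, adjusted p = 0.0123), and the median was 0.076. These 3 of 23 are near the 12.9% of all genes called. Of 14 complex I factors NDUFAF4 was called higher (0.41 ± 0.13, adjusted p = 0.0493, kept only without T288P replicate 4 and otherwise up to 0.121, and lost with no low-count filter, the replicate block and without both wells that stand apart) and the median was 0.141. Of 10 factors for complexes II and III and 5 for the ATP synthase, 0 were called by edgeR, with medians of -0.036 and 0.001. At an unadjusted p under 0.05 there were 4 and 0, against 28.3% of all genes. The 12.9% of all genes called is the background for these lists and for the complex I factors as well. Against WT the calls were 5 higher and 0 lower for complex I factors, 7 and 2 for complex IV, 2 and 0 for complexes II and III, and 1 and 0 for the ATP synthase, where 28.9% of all genes were called. LYRM7, a complex III factor, was at 1.09 ± 0.21 (adjusted p = 0.0011).

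With GDF11 against T288P, 12.9% of all genes were called and 28.3% had an unadjusted p under 0.05, with a median of -0.015. These values are the background for each list in this paragraph. Of 77 mitochondrial ribosomal proteins 0 were called against T288P, with 9 at an unadjusted p under 0.05 and a median of -0.020. Against WT 10 of them were called higher and 1 lower (14.3% of the list, against 28.9% of all genes). The 18 genes of the citrate cycle and pyruvate dehydrogenase had a median of -0.144 against T288P, with 4 of 18 positive. Of 6 regulators of pyruvate dehydrogenase, the kinase PDK3 rose (0.60 ± 0.17, adjusted p = 0.0256) and the phosphatase PDP1 fell (-0.52 ± 0.10, adjusted p = 0.00325). PDK1 (0.14 ± 0.11) and PDK4 (-0.20 ± 0.17) were not called. Of 7 antioxidant enzymes SOD2, the mitochondrial superoxide dismutase, was called higher, from 214.2 ± 37.4 to 356.9 ± 64.2 CPM (0.74 ± 0.13, adjusted p = 0.00167) with no overlap. Of 9 tested subunits and isoforms outside the symbol rule 0 were called, CYCS (cytochrome c) being at -0.06 ± 0.12. COX4I2 had 0 counts and NDUFA4L2 had 83 counts over all 16 libraries, so these isoforms linked to low oxygen were not testable here. Of 82 cytosolic ribosomal protein genes 0 were called, with 1 at an unadjusted p under 0.05 and a median of -0.139. Leaving out single wells kept the calls against T288P for POLG, FASTKD5, PDP1 and SOD2 in 8 of 8 cases and COX10 in 7 (lost without T288P replicate 1, adjusted p = 0.0584). With library totals only, POLG (-0.25) and COX10 (-0.26) were lost, and with no low-count filter COX10 and COA4, while FASTKD5, PDP1 and SOD2 were kept in all 13 other settings. COA4 was kept in 5 (lost without T288P replicate 3 or T288P+GDF11 replicate 1 or 3) and PDK3 in 4 (lost without replicate 1 or 2 of T288P or 1 or 3 of T288P+GDF11), with adjusted p up to 0.0833 and 0.107. TRMT10C and COX18 were kept in 3 cases (both lost without replicate 1 or 3 of T288P or 1, 2 or 3 of T288P+GDF11, up to 0.0879 and 0.0984).

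In M452I or T288P against WT, and in M452I against T288P, 0 genes of these lists were called. Of all genes, 0.0238%, 0.0417% and 0.00596% were called in these comparisons. The median over the mitochondrial ribosomal proteins was 0.164 in M452I against WT with 75 of 77 positive, and that over the cytosolic ribosomal proteins 0.210 with 82 of 82 positive, beside the 0.186 of the respiratory chain genes.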

How the data were processed

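RNA was poly(A)-selected and sequenced in 16 libraries, per the labels' protocols. The authors deposited whole-number counts per gene, not normalized. The submitters' processing notes name HISAT2 (version not given), StringTie 2.2.1 and GRCh38; how reads were counted, with which annotation and strandedness, is not given in the sources used here. In the table, counts of 1 (31005 cells) and 2 (29640 cells) were about equally frequent, so counts may overstate fragments. Each column name matched 1 library's title, 0 value columns were unused and 0 lines lacked a gene name.

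Tests ran in R 4.3.3 with edgeR 4.0.16 (TMM, filterByExpr with a minimum count of 10, robust quasi-likelihood F test, all 16 libraries in 1 model), Benjamini-Hochberg adjustment over 16790 genes and a threshold of 0.05. SE was taken as the size of the log2 fold change over the root of F. CPM use TMM-scaled library totals. The test was checked on simulated counts. Coordinates and exon lengths are GENCODE 29 on GRCh38, and promoters are RefSeq's.

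Members, gene lists and tests were chosen with earlier results of these data known. Named were the called nuclear genes of the main comparisons, all mitochondrial genes, set core subunits, each complex's extremes with GDF11 against T288P, up to 3 called genes per related list, set regulators and isoforms, and PCSK5. NDUFV3, NDUFA8, NDUFA9, NDUFA11, FASTKD1 and LYRM7 were named after their values were seen. Marker lists were epithelial, fibroblast, endothelial, leukocyte and erythroid. Alternatives were DESeq2 1.42.0, limma-voom (limma 3.58.1), 4 other scalings, 3 other filters, 2-group fits, the replicate number as a block, the ribosomal protein share as a covariate, leaving out each library, and a minimum fold change of 1.5. The fit without both wells that stand apart was added after seeing the data. A result for the citrate cycle list is not reported here.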

Additional observations from a re-analysis of the deposited data

Results flagged for a closer look

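In 160 groups of 4 wells looked at, 20 had a well far from the other 3. For a single group chance gives about 1 in 20, but the 160 groups are not independent. They reuse the same 16 wells, and the genes move together within a well. The 20 are thus not separate events, and their number was not tested against chance. Of the 20, 16 lie in M452I replicate 4 or T288P replicate 1. In M452I replicate 4, UQCRC1 was at 135.7 CPM (187.4 to 191.2 in the others), COX4I1 at 224.6 (374.3 to 380.3), ATP5MC3 at 72.75 (101.5 to 105), ATP5MK at 99.23 (177.9 to 191.1) and NDUFA9 at 50.4 (70.44 to 74.27). In the same well MT-ND6 was higher, at 257 CPM (180.1 to 185.9), as were MT-CYB at 1710 (1080 to 1148) and the mitochondrial genes together at 3.979% of counts (2.681 to 2.859%).

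In T288P replicate 1, UQCRC1 was at 196.1 CPM (150.2 to 154.9), CYC1 at 104.2 (66.91 to 69.54), COX4I1 at 349.3 (283 to 288.5), COX5B at 74.8 (56.65 to 56.99), ATP5F1A at 435.5 (387.2 to 390), ATP5MC2 at 102.3 (71.23 to 74.27) and COX8A at 98.32 (53.52 to 60.35). NDUFA8 was lower in that well, at 19.38 CPM (21.68 to 22.05). In other T288P wells, SDHC was at 79.89 CPM in replicate 3 (93.62 to 95.07) and MT-CO2 at 4612 in replicate 4 (4074 to 4118). In T288P+GDF11 replicate 1, MT-ND6 was at 231 CPM (200.4 to 204.1) and the mitochondrial genes at 3.772% of counts (3.295 to 3.317%).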

How the results depend on the processing

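Counts of genes called are given as nuclear and mitochondrial. For GDF11 against T288P (3 and 4 as reported), the nuclear count was 1 with library totals only or no low-count filter, 40 with the share of ribosomal protein counts as a covariate and 0 at a fold change of at least 1.5. The mitochondrial count was 2 with RLE normalization, with at least 50 or at least 10 counts in 4 libraries, with only the 2 groups compared and with the replicate block, 1 with upper quartile normalization, and 0 with library totals only, no low-count filter or a fold change of at least 1.5. Of all genes, 12.6% were called with RLE, 17.8% and 12.3% with the 2 filters and 16.4% with the 2 groups. The share was 10.9% with the replicate block, 12.4% with upper quartile and 3.58% with no low-count filter. For GDF11 against WT (6 and 4), the nuclear count was 3 with no low-count filter, 19 with only the 2 groups compared, 53 with the covariate and 2 at a fold change of at least 1.5; the mitochondrial count was 0 with library totals only, 7 with the covariate and 0 at that fold change, and the mitochondrial median went from -0.110 to 0.074 with library totals only, where the median of all genes went from 0.017 to 0.200, so relative to all genes it stayed negative. Leaving out 1 library at a time gave 2 to 13 nuclear and 0 to 4 mitochondrial genes for GDF11 against T288P. It gave 4 to 15 and 4 to 6 for GDF11 against WT, and 0 in the other 3 comparisons. The 13 and 15 came without M452I replicate 4, where 19.9% and 33.9% of all genes were called. The 0 for GDF11 against T288P came without T288P replicate 4, where 10.8% of all genes were called. Without both wells that stand apart the counts were 29 and 2 for M452I against WT, 55 and 5 for M452I against T288P, 29 and 6 for GDF11 against WT, 4 and 5 for GDF11 against T288P, and 0 and 0 for T288P against WT. In the same order, 3.72%, 14.1%, 36.3%, 13.7% and 4.06% of all genes were called. Correlations of deviations between wells of the same number were -0.266 to 0.263 over the 5 comparisons, and not every well was closest to its own number, so the numbers were not taken to pair the wells; the replicate block changed no other count past 1.5 times. The causes were not tested. Depth of 28.45 to 50.76 M counts leaves counting error small, and 4 wells of 1 line limit the precision.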
